A study of Mus musculus with 7 samples.

Results

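The genes described here are those whose signal differed from untreated mouse embryonic fibroblasts (MEFs) in the same direction with each of 3 native isoforms of Mef2c. They were found by setting 3 arrays of transduced fibroblasts against 1 array of untreated fibroblasts, which uses 4 of the 7 arrays of the study. All 19505 genes with a symbol were described, by the mean and by the smallest of the 3 differences from MEFs, with no gene left out. The study gave fibroblasts different forms of Mef2c together with Gata4 and Tbx5 and measured RNA on a Clariom S mouse array, a 1-colour array with probe sets for annotated transcripts.

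All 3 transduced groups received retroviruses for Gata4 and Tbx5 (GT). They differed in the retrovirus for Mef2c, which carried isoform 1 (GT/M1), isoform 2 (GT/M2) or isoform 6 (GT/M6), in each case without the added MyoD domain used elsewhere in the study. Per the labels, the infected cells were given new medium after 24 h and lysed for RNA 1 week later. The MEFs received no virus, their harvest time was not given, and no array of fibroblasts with virus but without the factors was analysed here. The factors, the infection and the time in culture therefore cannot be told apart in any difference from MEFs. The labels name neither the strain nor the age of the embryos. Each group had 1 array, so no difference below has a replicate check, no p-value is given, and genes were called by size alone. The 3 comparisons share the MEF array, so a gene with an unusual value there differs from all 3 isoforms at once.

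Mef2c is a MADS-box transcription factor that binds A/T-rich sites in muscle promoters and enhancers. Gata4 is a zinc-finger factor and Tbx5 a T-box factor of the early heart. Delivered together to fibroblasts, the 3 factors can switch on cardiac genes without a stem cell stage, a process called direct cardiac reprogramming, in which fibroblast genes are repressed and many cells leave the cell cycle. In RNA from whole cultures, fewer cells of a type and less RNA per cell cannot be told apart.

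Values are log2 signals, so a difference of 1 is 2-fold. Values for the isoforms are always given in the order GT/M1, GT/M2, GT/M6. A detection line was set on each array at the 95th percentile of its 5222 negative-control probes, at 8.81 on MEFs and at 9.33, 8.82 and 9.14 with the isoforms. Between 23.7% and 28.2% of genes reached the line of an array. A gene was called shared higher when it was at least 2-fold higher than on MEFs with every isoform and reached the line on all 3 isoform arrays. It was called shared lower when it was at least 2-fold lower with every isoform and reached the line on MEFs. The shared difference is the smallest of the 3. Where a value lay under its line, only a bound was given: the value was set to the line and the smallest fold is written as "at least". Probe positions are not known, so for families with near-identical members, such as the actins and histones, the signal may come in part from relatives.

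The transduced factors were examined first. Mef2c gave 8.24 on MEFs and 18.50, 18.82 and 18.69 with the isoforms, and Tbx5 gave 5.72 on MEFs and 16.19, 16.23 and 16.22. Both were under the line on MEFs and far above it with every isoform, at least 828-fold higher for Mef2c and at least 167-fold higher for Tbx5. The Mef2c signals do not separate the isoforms and do not tell viral from cellular transcript. Gata4 gave 4.22 on MEFs and 5.09, 4.39 and 4.63 with the isoforms, under the line on every array. Whether its probes lie in the transduced sequence is not known, so the Gata4 values do not check that factor.

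Of the 19505 genes, 1054 were shared higher, which is 5.4%, and 902 were shared lower, which is 4.62%. With values under the line set to the line, the counts were 886 (4.54%) and 657 (3.37%). Counted on its own, GT/M1 had 1273 genes higher (6.53%) and 1253 lower (6.42%) than MEFs. GT/M2 had 1596 higher (8.18%) and 1069 lower (5.48%), and GT/M6 had 1437 higher (7.37%) and 1172 lower (6.01%). Most genes called with any isoform were thus called with all 3: 1054 were called higher with all 3 isoforms, 319 with 2 of them and 506 with 1, and 902, 273 and 242 were called lower. These counts share the MEF array. Among the shared higher genes the median of the mean differences was 2.08, and 476 were past 4-fold and 150 past 16-fold with every isoform. Among the shared lower genes the median was -2.15, and 395 and 53 were past these folds. Over all genes the median was 0.08, and 8030 of the 19505 were above MEFs and 6160 below MEFs with all 3 isoforms at any size. Counts of called list members below are to be read against 5.4% higher and 4.62% lower over all genes. List medians below are given first from the signals as deposited and then bounded, with values under the line set to the line. Over all genes the bounded median is 0.00. Higher calls made up 53.9% of all calls, 38.7% (790 higher, 1250 lower) with each array centred on its median over genes and 43.4% (816 higher, 1066 lower) with arrays centred on negative controls. These scalings moved the median of all genes from 0.08 to -0.24 and -0.17. The same call rule took 0.44% of negative-control probes as higher and 0.46% as lower. Counted only over features that reached the line, it took 23.3% of genes against 12.8% of 179 control probes as higher, and 17.6% of genes against 9.16% of 262 control probes as lower, so a gene near the line carries little weight by itself.

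**Figure D1:**
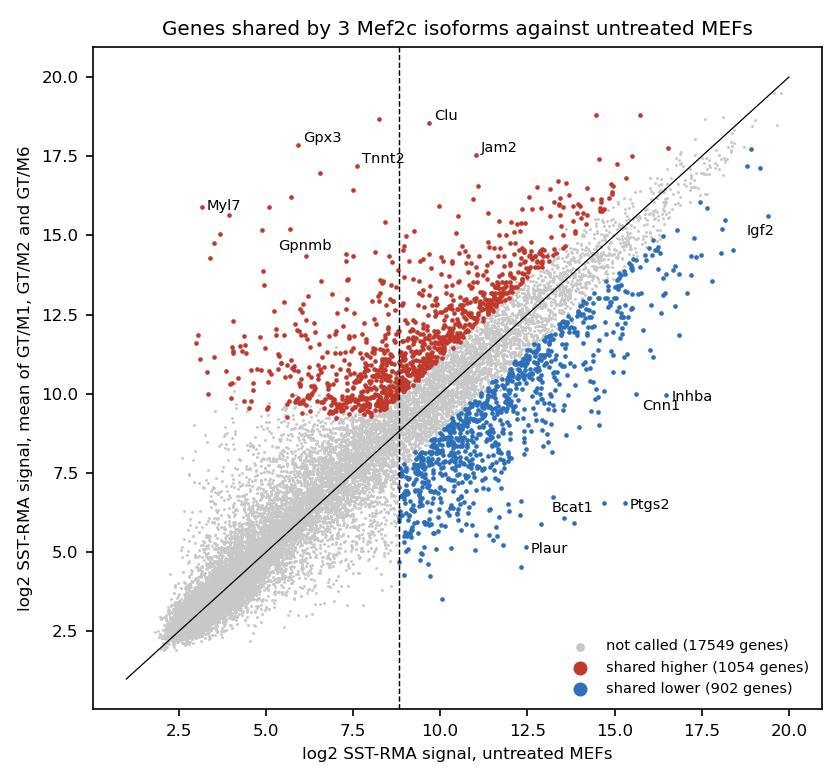
Each point is 1 of 19505 genes, with the log2 signal on untreated MEFs on the horizontal axis and the mean log2 signal of GT/M1, GT/M2 and GT/M6 on the vertical axis. The solid line marks equal signal and the dashed line the MEF detection line at 8.81. The 1054 shared higher genes (red) include many that start under the line, such as Myl7 and Gpx3, and the 902 shared lower genes (blue) reach from Igf2 near the top of the scale to Plaur under the line.

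The spread among the isoforms is described over the called genes, which the rule chose for lying on the same side of MEFs with every isoform. The median range over the 3 isoform arrays was 0.39 among shared higher genes and 0.53 among shared lower genes. Over all 4528 genes that reached the line with every isoform, called or not, it was 0.37. GT/M2 was more often the outermost of the 3 arrays than GT/M1 or GT/M6. It was the highest of the 3 in 429 of the shared higher genes and the lowest in 388, and it was the highest in 440 of the shared lower genes and the lowest in 317. With 1 array each, an effect of the isoform and a difference between arrays cannot be told apart.

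Genes that reached the line on all 4 arrays give folds rather than bounds, though some had MEF values close to the line. Clu, which encodes the secreted chaperone clusterin, gave 9.69 on MEFs and 18.78, 18.17 and 18.68 with the isoforms, a shared difference of 8.47 or 356-fold. Jam2, a junctional adhesion molecule, gave 11.02 against 17.42, 17.54 and 17.69, and Nid2, a basement membrane protein, gave 9.98 against 15.99, 15.64 and 16.12. In all of these genes the 3 isoform values lay close together and far above MEFs. Cdh13, a cadherin held by a lipid anchor, Tspan12, a tetraspanin, Efemp1, a fibulin of the matrix, and Perp, a desmosome-associated membrane protein, were 52.2-fold, 47.7-fold, 39.5-fold and 31.2-fold higher by their smallest difference. Parm1, Sort1, Sorbs2 and Ldlrad3 were 39.5-fold, 27.1-fold, 25.7-fold and 24.8-fold higher. Sort1 encodes the sorting receptor sortilin and Sorbs2 an adaptor of the Z-disc and actin filaments.

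Genes under the line on MEFs give only bounds. Gpx3, a secreted selenium-dependent glutathione peroxidase, gave 5.92 on MEFs and 17.98, 17.97 and 17.61 with the isoforms, and was at least 446-fold higher. Apoe, the lipid carrier apolipoprotein E, gave 8.42 against 16.13, 14.75 and 15.36 and was at least 61.6-fold higher. Pltp, which transfers phospholipids between lipoproteins, gave 7.50 against 14.15, 14.34 and 14.57 and was at least 40.7-fold higher. Prrg4, a membrane protein with a Gla domain, was at least 43.8-fold higher. These 4 genes went from under the line to high signals with every isoform, and none of them encodes a muscle structural protein.

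**Figure D2:**
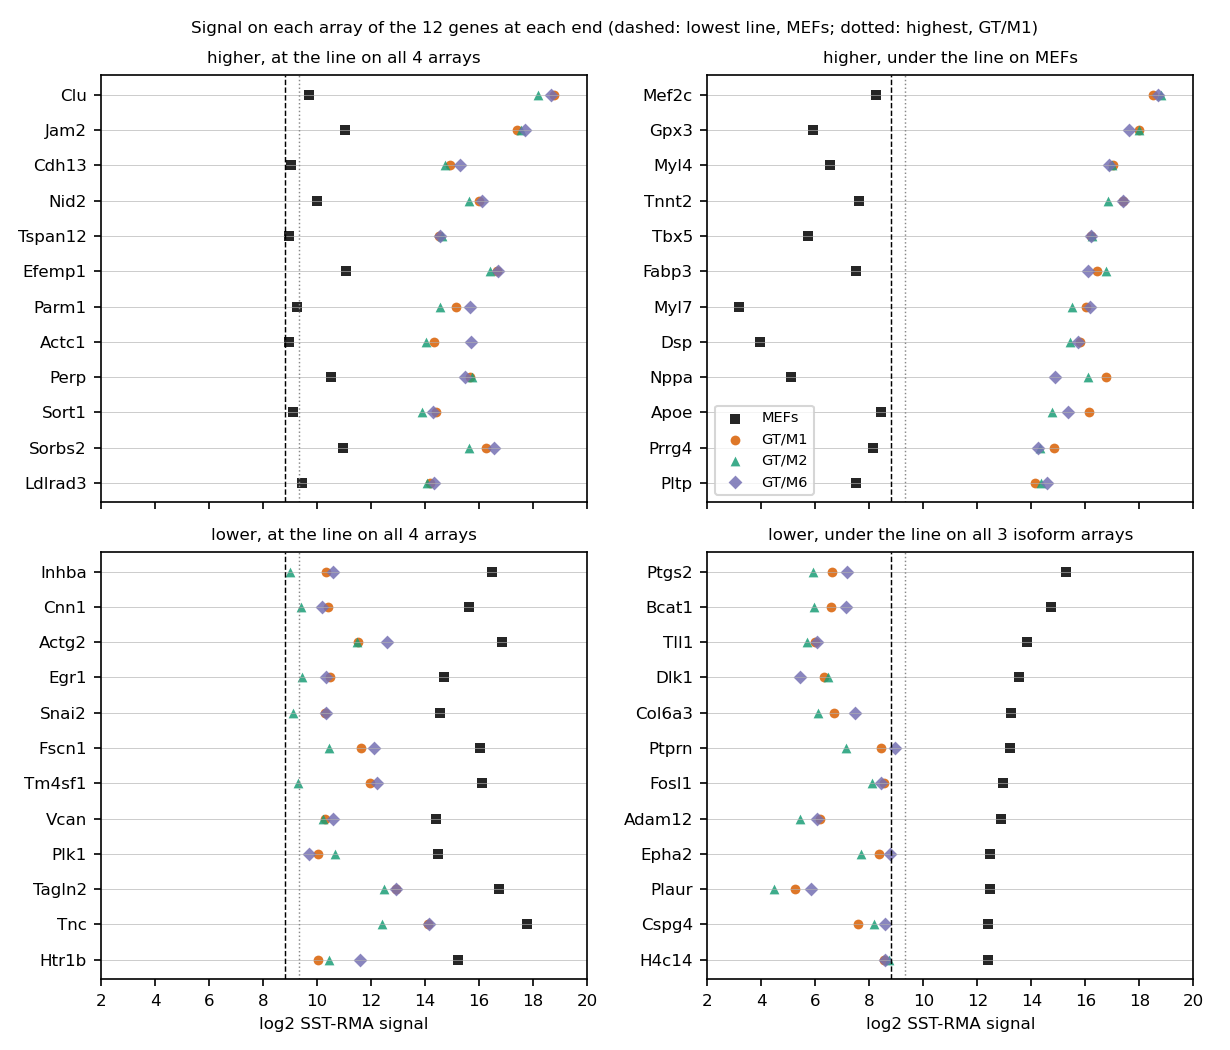
Log2 signal of the 12 genes at each end on MEFs (squares), GT/M1 (circles), GT/M2 (triangles) and GT/M6 (diamonds). The upper panels show genes that were higher and the lower panels genes that were lower, at the line on all 4 arrays (left) or with 1 side under the line (right). The dashed line is the lowest detection line (MEFs, 8.81) and the dotted line the highest (GT/M1, 9.33). The 3 isoform values lie on the same side of the MEF value in every gene drawn. Their spread differs between genes, from 0.04 in Tbx5 to 2.93 in Tm4sf1.

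Of 22 measured filament genes, 8 were called higher and 1 lower, against 5.4% and 4.62% of all genes, and the median of the mean differences was 2.83 against 0.08. Only 11 of the 22 reached the line on any array, and the bounded median was 0.00. The atrial myosin light chains led the list. Myl7 gave 3.16 on MEFs and 16.03, 15.50 and 16.18 with the isoforms, and was at least 103-fold higher. Myl4 gave 6.55 against 17.02, 16.97 and 16.89 and was at least 271-fold higher. Tnnt2, cardiac troponin T, gave 7.61 against 17.40, 16.83 and 17.38 and was at least 259-fold higher. All 3 were under the line on MEFs, so their folds are lower bounds. Cardiac actin, Actc1, reached the line on MEFs, at 8.97, and gave 14.32, 14.03 and 15.69, a smallest fold of 33.2. Tnnc1, troponin C of heart and slow muscle, gave 8.24 against 12.78, 13.22 and 12.76. Myh6, the alpha myosin heavy chain of heart muscle, came closer to the line, at 9.92, 10.78 and 11.66 against 4.75, and was at least 2.17-fold higher. Mybpc3, cardiac myosin binding protein C, was at least 3.99-fold higher and the M-band protein gene Myom2 at least 4.47-fold.

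Most other filament genes were not called. Ttn, the giant spring protein titin, gave 6.36 on MEFs and 9.21, 10.93 and 10.80 with the isoforms. It was not called, since its GT/M1 value lay under the GT/M1 line. Tnni3, cardiac troponin I, gave 4.88 against 7.77, 8.69 and 7.36, and Actn2, alpha-actinin of the Z-disc, gave 7.81 against 8.33, 8.39 and 8.47, with no value of either at the line. The ventricular light chain gene Myl2 gave 4.40 against 3.53, 4.71 and 4.68, also under the line throughout. The 1 filament gene called lower was Tpm1, a tropomyosin shared with fibroblast stress fibres, at 18.90 against 17.73, 17.65 and 17.82. Its shared difference of -1.08 lost its call with quantile normalization.

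Of 25 Z-disc, desmosome and costamere genes 11 were called higher and 0 lower, with a median of 0.96 and a bounded median of 0.73. Dsp, desmoplakin of the cell junctions between heart muscle cells, gave 3.95 on MEFs and 15.80, 15.42 and 15.73 with the isoforms, at least 97.7-fold higher. Pdlim3, a Z-disc adaptor, gave 5.68 against 13.71, 16.06 and 15.87 and was at least 29.8-fold higher. Ldb3, a Z-disc scaffold, and Des, the muscle intermediate filament desmin, were at least 10.2-fold and 7.13-fold higher. Jup (plakoglobin), Ankrd1 (a stretch-responsive titin partner), Cryab (a small heat shock protein) and Cdh2 (N-cadherin) were already well above the line on MEFs, at 13.60, 13.43, 12.90 and 13.42. They were 7.81-fold, 5.97-fold, 5.68-fold and 5.32-fold higher by their smallest difference. Of the desmosome genes on this list Dsp and Jup were called, while Pkp2 gave 7.96 against 8.19, 9.32 and 8.19, and Dsg2 gave 5.32 against 5.13, 5.36 and 5.35, and neither was called.

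Among 22 calcium handling genes 3 were called higher (13.6%) and 1 lower (4.55%), against 5.4% and 4.62% of all genes. Casq2, the calcium store protein of the cardiac sarcoplasmic reticulum, gave 4.94 on MEFs and 12.96, 12.62 and 14.71 with the isoforms, at least 14.0-fold higher. Ryr2, the calcium release channel, gave 3.12 against 11.66, 10.36 and 11.25, at least 2.94-fold higher, and the calcium pump gene Atp2a2 gave 14.89 against 16.81, 16.51 and 16.61. The pump's brake, phospholamban (Pln), stayed under the line at 2.40 against 4.40, 2.87 and 4.66, and the L-type channel gene Cacna1c was lower at 11.05 against 9.14, 8.80 and 9.48. Among 22 ion channel and connexin genes 1 was called in each direction (4.55%), near the shares of all genes. The higher one was Bves, a cyclic AMP binding membrane protein, at 8.02 against 10.84, 11.40 and 10.53. The 1 called lower was the connexin gene Gjc1 at 10.31 against 7.04, 7.32 and 7.47, a fold of at least 1.97 with the isoform values at the line. Gja1, the main connexin of working heart muscle, was high on all 4 arrays, at 13.65 on MEFs and 13.99, 13.03 and 14.33 with the isoforms.

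Of 14 hormone and stress genes 4 were called higher and 1 lower. Nppa, atrial natriuretic peptide, gave 5.09 on MEFs and 16.77, 16.10 and 14.88 with the isoforms, at least 67.1-fold higher and lowest with isoform 6. The protease that cuts its precursor, Corin, gave 4.04 against 12, 10.48 and 11.97, and Pam, an enzyme of peptide amidation that is abundant in atrial granules, gave 10.63 against 14.91, 14.15 and 14.99. The hormone and its protease were thus higher with every isoform, while brain natriuretic peptide, Nppb, stayed under the line at 3.39 against 7.13, 6.86 and 5.88. Rcan1, a calcineurin regulator, was at least 2.53-fold higher. Edn1, endothelin, was lower at 8.96 against 5.79, 4.99 and 5.70, but its MEF value was so near the line that no bound above 1 could be given.

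Of 33 cardiac transcription factor genes 5 were called higher and 3 lower, with a median of -0.08 that reached 0.00 without GT/M1. The viral factors Mef2c and Tbx5 are 2 of the 5. Tbx20, a T-box factor of heart muscle, gave 3.98 on MEFs and 11.23, 9.90 and 9.80 with the isoforms, at least 1.98-fold higher, and Tbx2, a T-box repressor, gave 8.05 against 11.47, 11.92 and 10.60. Mrtfb, a coactivator of serum response factor, gave 12.04 against 13.38, 13.55 and 13.35. Its partner Srf was lower at 11.31 against 9.31, 9.07 and 8.97, as was the forkhead factor Foxp1 at 14.89 against 11.22, 11.40 and 11.45. Nkx2-5 gave 3.63 against 3.31, 3.22 and 3.18 and Hand2 gave 4.77 against 4.69, 4.80 and 4.75. Both of these core heart factors were under the line on every array.

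The skeletal muscle list gave no call in either direction among 34 measured genes, against 5.4% and 4.62% of all genes. Only 2 of the 34 reached the line on any array, so the rule could call few of them. The skeletal regulators Myod1 and Myog gave at most 3.54 and 4.43 on any of the 4 arrays. Skeletal alpha-actin, Acta1, which fetal heart muscle also makes, gave 10.02 on MEFs and 10.19, 10.03 and 9.96 with the isoforms.

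Promoters of the muscle genes called higher are shown because Mef2c, Tbx5 and Gata4 have known binding motifs. The lines give the 250 bases before the RefSeq start (GRCm38.p6), on the strand of the gene, for 4 genes from the top of the muscle lists with an entry in the promoter table. Capitals mark matches on either strand to the MEF2 motif, the CArG box of serum response factor, the GATA motif AGATAA and the T-box motif AGGTGT.
Myl7 (chr11:5898783-5899032, minus strand): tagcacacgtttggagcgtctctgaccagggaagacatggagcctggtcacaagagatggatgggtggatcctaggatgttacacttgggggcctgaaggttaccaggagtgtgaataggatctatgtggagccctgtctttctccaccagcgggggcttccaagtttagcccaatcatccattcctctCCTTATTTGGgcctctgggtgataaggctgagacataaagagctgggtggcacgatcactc
Dsp (chr13:38151044-38151293, plus strand): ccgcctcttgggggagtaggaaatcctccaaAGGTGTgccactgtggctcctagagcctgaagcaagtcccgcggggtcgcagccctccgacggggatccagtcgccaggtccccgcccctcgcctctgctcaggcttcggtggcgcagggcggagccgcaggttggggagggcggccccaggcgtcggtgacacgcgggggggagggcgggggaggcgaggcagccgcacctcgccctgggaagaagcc
Myl4 (chr11:104550413-104550662, plus strand): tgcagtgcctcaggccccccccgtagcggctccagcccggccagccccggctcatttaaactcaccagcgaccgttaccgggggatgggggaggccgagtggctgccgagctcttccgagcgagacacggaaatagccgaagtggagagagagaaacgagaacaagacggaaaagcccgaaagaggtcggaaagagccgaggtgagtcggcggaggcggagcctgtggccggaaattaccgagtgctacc
Nppa (chr4:148000472-148000721, plus strand): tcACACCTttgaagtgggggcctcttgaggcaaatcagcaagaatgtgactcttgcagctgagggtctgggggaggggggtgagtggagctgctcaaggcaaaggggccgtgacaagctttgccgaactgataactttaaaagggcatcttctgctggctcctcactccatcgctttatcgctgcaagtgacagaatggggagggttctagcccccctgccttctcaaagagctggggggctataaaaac

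The Myl7 window holds a CArG box from base -61 to base -52 relative to the start, and the Dsp and Nppa windows hold a T-box match. The Myl4 window holds none of these letters, and none of the 4 holds a MEF2 match. Only these exact letters were searched, so near matches, such as tgataa in the Myl7 and Nppa windows, were not marked or counted. In the windows from 250 bases before to 50 bases after the start, 2.63% of the 19143 promoters of measured genes held a MEF2 match and 1.46% a CArG match. Among the 28 promoters of muscle-list genes called higher, 4 held a MEF2 match and 4 a CArG match, 14.3% for each. Among the 103 promoters of all measured muscle-list genes the shares were 8.74% and 10.7%, so the letters also occur in members that were not called. Over all 1132 promoters of shared higher genes the MEF2 share was 2.47%. T-box letters were in 21.4% of the 28 promoters and in 12.5% of all promoters, and GATA letters in 10.7% and 9.56%. Of the MEF2 matches over all promoters, 120 of 504 overlapped the TATA letters TATAAA, and 0 of the 4 in the muscle promoters did. A match is a string of letters, not a measured binding site. The matches below were picked because they hold the motif, in capitals with bases on either side.
Casq2, MEF2 (chr3:102086334-102086367, plus strand): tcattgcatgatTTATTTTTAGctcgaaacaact
Mybpc3, MEF2 (chr2:91118042-91118075, plus strand): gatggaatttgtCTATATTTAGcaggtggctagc
Synpo2l, MEF2 (chr14:20668442-20668475, minus strand): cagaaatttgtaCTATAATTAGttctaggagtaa
Myl7, CArG (chr11:5898822-5898855, minus strand): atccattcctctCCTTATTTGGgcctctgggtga
Ldb3, CArG (chr14:34588695-34588728, minus strand): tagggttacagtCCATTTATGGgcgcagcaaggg
Actc1, CArG (chr2:114052901-114052934, minus strand): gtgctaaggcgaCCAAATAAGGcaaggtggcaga

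Of 32 genes of fatty acid use 14 were called higher and 0 lower, with a median of 1.80 and a bounded median of 0.58. Fabp3, the fatty acid binding protein of heart muscle, gave 7.50 on MEFs and 16.42, 16.78 and 16.09 with the isoforms, at least 155-fold higher. Pdk4, the kinase that turns off pyruvate dehydrogenase, gave 5.99 against 12.46, 13.07 and 12.54, at least 12.6-fold higher. Of the enzymes of mitochondrial beta-oxidation, Acaa2 gave 11.36 against 15.59, 16.20 and 15.31, and Acadl gave 10.06 against 12.37, 13.31 and 12.02. Others were not called, such as Hadha, a subunit of the trifunctional protein, at 12.91 against 13.50, 13.70 and 13.48, and Acads at 6.53 against 7.62, 8.80 and 7.64. Cpt1a, which admits fatty acids to mitochondria, gave 8.83 against 12.10, 11.72 and 12.11. GT/M2 was the highest of the 3 isoform arrays in 10 of the 14 called genes, beside 429 of all 1054 shared higher genes. Lpl, a lipase that frees fatty acids from lipoproteins, was at least 2.04-fold higher.

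Of 42 respiratory chain subunit genes 31 were above MEFs with all 3 isoforms, beside 8030 of the 19505 genes. Only 3 were called higher, Ndufa1, Cox8a and Cox4i1, with shared differences of 1.88, 1.36 and 1.08, and the list median was 0.52, bounded 0.39. The Cox4i1 call was lost in each of 3 other scalings of the arrays and the Cox8a call in 1. In glycolysis 4 of 21 genes were called higher and 2 lower. The higher ones included muscle-type enzymes, beta-enolase (Eno3) at 6.39 against 11.55, 13.11 and 12.09 and muscle phosphoglycerate mutase (Pgam2) at 5.07 against 9.70, 9.53 and 9.51. Ldhb, the heart-type lactate dehydrogenase subunit, gave 6.99 against 11.39, 11.70 and 10.79. The glucose transporter gene Slc2a1 was lower, at 15.38 against 12.50, 12.43 and 12.38, as was Pgk1 at 14.91 against 12.75, 13.18 and 12.76. Ppp1r3c, which brings a phosphatase to glycogen, gave 3.40 against 13.59, 15.68 and 13.59 and was at least 27.5-fold higher, and Gyg, the primer of glycogen synthesis, was at least 5.25-fold higher. Myoglobin (Mb) stayed under the line, at 4.47 against 6.63, 5.71 and 7.66.

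The lysosome list had the largest share of higher calls of the 42 lists, with 16 of 28 genes higher and 0 lower, a median of 1.62 and a bounded median of 1.36. Lysosomes break down material taken up or delivered by autophagy, and their genes are known targets of Tfeb and related factors. Ctsa, the protective protein cathepsin A, gave 12.55 on MEFs and 16.20, 16.11 and 16.28 with the isoforms, 11.9-fold higher by its smallest difference. Tpp1, a peptidase, and Gaa, which digests glycogen in the lysosome, were 9.22-fold and 9.05-fold higher. Gpnmb, a membrane glycoprotein of lysosomes and melanosomes, gave 7.30 against 14.95, 13.54 and 14.72, at least 26.5-fold higher. The cathepsins Ctsl and Ctsb were 4.85-fold and 4.56-fold higher, the calcium channel gene Mcoln1 4.09-fold, and the membrane proteins Lamp2 and Lamp1 2.60-fold and 2.50-fold. The called genes thus covered hydrolases, membrane proteins, a channel and a subunit of the proton pump, Atp6v1h, at 2.05-fold. GT/M2 was the lowest of the 3 isoform arrays in 14 of the 16, beside 388 of all 1054 shared higher genes. Tfeb itself gave 4.99 against 5.56, 5.55 and 5.56, under the line on every array. Macrophages, which are rich in lysosomes, have a marker list of 19 measured genes, and 0 of them reached the line on any of the 4 arrays. What part macrophages have in the lysosome signals was not tested.

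Promoters of 14 of the 16 lysosome genes were in the table. The CLEAR motif of Tfeb was searched as CACGTGA on both strands. It was in 4 of the 16 promoters of these genes (25%), against 4.57% of all promoters and 9.01% of promoters of all shared higher genes. Lysosome genes that were not called were not counted, so these shares do not tell whether the letters go with the call. The 4 matching stretches are printed with the motif in capitals, all from bases before the start.
Ctsa, CLEAR (chr2:164833749-164833772, plus strand): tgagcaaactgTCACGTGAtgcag
Gaa, CLEAR (chr11:119267810-119267840, plus strand): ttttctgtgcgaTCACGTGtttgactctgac
Mcoln1, CLEAR (chr8:3500462-3500492, plus strand): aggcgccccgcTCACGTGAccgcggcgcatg
Lamp1, CLEAR (chr8:13159133-13159160, plus strand): CACGTGAccacaTCACGTGcggaacgga

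**Figure D3:**
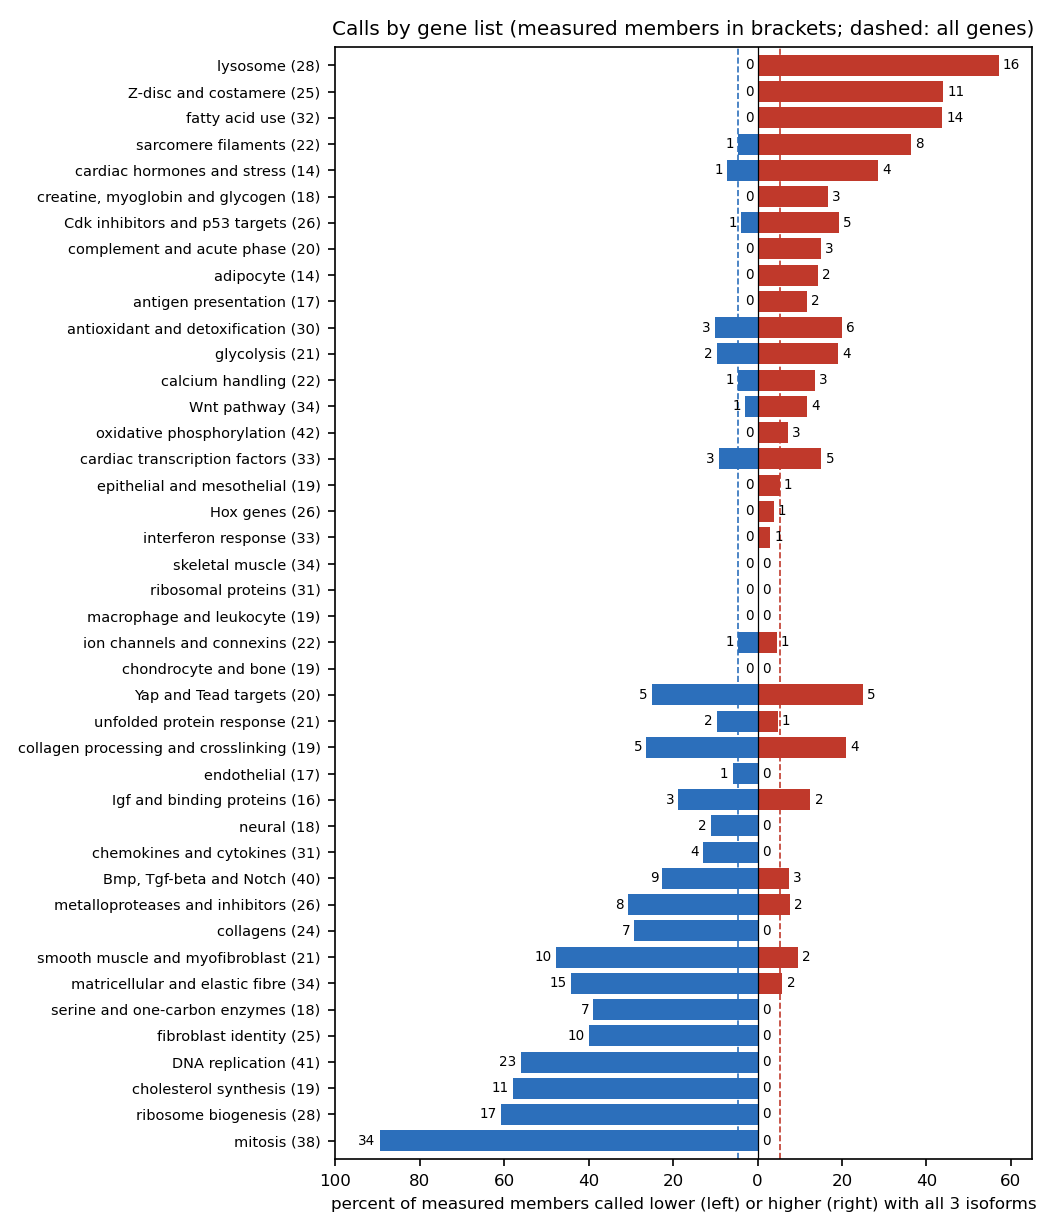
Bars give the percent of the measured members of each of 42 gene lists that were called shared higher (right, red) or shared lower (left, blue), with the number of called genes at the end of each bar and the number measured in brackets. Dashed lines mark 5.4% and 4.62%, the shares over all 19505 genes. Lysosome, with 16 of 28 higher, and mitosis, with 34 of 38 lower, are the ends of the range.

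Mitosis genes had the largest share of lower calls. Of 38 measured genes 34 were called lower and 0 higher, with a median of -3.56 and a bounded median of -1.81, and 37 of 38 were below MEFs with all 3 isoforms, beside 6160 of the 19505 genes. Plk1, a kinase of mitotic entry, gave 14.48 on MEFs and 10.03, 10.68 and 9.70 with the isoforms, 13.9-fold lower by its smallest difference. Mki67, the proliferation marker Ki-67, gave 15.26 against 10.87, 11.77 and 10.83, 11.3-fold lower. Ccna2, cyclin A, gave 13.55 against 9.49, 10.20 and 9.27, 10.2-fold lower. All isoform values of these 3 genes stayed above the line, so their transcripts were still measured. Top2a, which untangles DNA, gave 11.94 against 8.32, 8.08 and 7.87, and the mitotic kinase gene Cdk1 gave 11.04 against 6.70, 7.48 and 6.74. Those 2 were under the line with every isoform, at least 6.08-fold and 3.28-fold lower. Mybl2, a transcription factor of the cell cycle, gave 10.31 against 4.96, 5.48 and 4.98, but could be bounded only at 1.97-fold.

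DNA replication genes followed, with 23 of 41 called lower, 0 higher and a median of -2.35. With values under the line set to the line 13 remained past 2-fold and the median was -0.40. Rrm2, a subunit of ribonucleotide reductase, gave 14.56 on MEFs and 9.13, 9.18 and 8.71 with the isoforms, at least 37.5-fold lower. The partner subunit Rrm1 gave 14.75 against 11.63, 11.75 and 12.30, and the sliding clamp gene Pcna gave 15.37 against 13.05, 13.32 and 13.30. Mcm5, of the replicative helicase, gave 11.21 against 7.16, 7.76 and 6.92. GT/M2 was the highest of the 3 isoform arrays in 21 of the 23 replication genes and in 29 of the 34 mitosis genes. Over all 902 shared lower genes it was the highest in 440. Only 4 of the 41 replication genes and 5 of the 38 mitosis genes reached the line on all 4 arrays. Much of this order therefore lies among values under the line, and each isoform had 1 array. Replication-dependent histones belong to the same phase, and H4c14 was at least 8.36-fold lower.

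Of 26 Cdk inhibitor and p53 target genes 5 were called higher (19.2%) and 1 lower (3.85%), against 5.4% and 4.62% of all genes. The lower share was thus no larger than that of all genes. Of the 26, 17 reached the line on an array. Over all genes at the line with every isoform, 23.3% were called higher. Trp53inp1, a p53 target linked to autophagy, gave 9.70 against 13.28, 13.72 and 13.27, and Btg2, an antiproliferative p53 target, gave 11.06 against 13.40, 13.90 and 13.26. Cdkn1a, which encodes p21, was already at 16.53 on MEFs and gave 17.57, 17.75 and 17.98, a shared difference of 1.03. Cdkn2a gave 2.96 against 7.71, 8.40 and 8.45, under the line on every array. Plk2, a polo-like kinase that p53 can induce, was lower at 14.15 against 10.80, 11.30 and 10.95. Myc gave 15.53 against 14.08, 15.44 and 13.62, lower with isoforms 1 and 6 and near MEFs with isoform 2.

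The promoters of the cell cycle genes are shown because genes of late cell cycle phases are known to share a CCAAT box and a CHR element. The CHR was searched as TTTGAA on both strands. The E2F motif was searched as TTCCCGC, and the CCAAT box by its name, also on both strands. The 250 bases before the start are given for the 3 genes with the largest shared difference, with matches in capitals.
Rrm2 (chr12:24708004-24708253, plus strand): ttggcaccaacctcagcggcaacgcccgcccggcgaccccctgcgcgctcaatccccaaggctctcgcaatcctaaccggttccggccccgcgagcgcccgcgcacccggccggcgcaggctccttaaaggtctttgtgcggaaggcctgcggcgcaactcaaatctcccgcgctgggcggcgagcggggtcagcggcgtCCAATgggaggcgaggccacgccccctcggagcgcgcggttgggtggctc
Mybl2 (chr2:163054385-163054634, plus strand): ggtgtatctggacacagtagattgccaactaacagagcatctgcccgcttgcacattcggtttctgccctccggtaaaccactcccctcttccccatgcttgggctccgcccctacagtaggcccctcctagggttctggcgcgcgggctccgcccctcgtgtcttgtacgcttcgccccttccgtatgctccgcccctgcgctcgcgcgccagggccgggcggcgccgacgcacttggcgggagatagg
Plk1 (chr7:122159185-122159434, plus strand): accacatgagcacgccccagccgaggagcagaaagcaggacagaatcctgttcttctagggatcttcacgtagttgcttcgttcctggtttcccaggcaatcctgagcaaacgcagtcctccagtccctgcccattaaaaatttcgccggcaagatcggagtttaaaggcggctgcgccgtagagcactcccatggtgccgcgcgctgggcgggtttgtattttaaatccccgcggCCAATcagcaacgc

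The Rrm2 and Plk1 windows each hold a CCAAT box, from base -50 to -46 and from base -14 to -10 relative to the start. The Mybl2 window holds none of these letters. Only the exact letters were searched, so near matches to the E2F letters, such as gcgggag in the Mybl2 window, were not marked or counted. Among 56 promoters of replication and mitosis genes called lower, 69.6% held CCAAT against 37.9% of all promoters. CHR letters were in 48.2% against 15.3% and E2F letters in 14.3% against 6.19%. Both CCAAT and CHR were in 23 of the 56 (41.1%), against 6.19% of all promoters. The letters of CCAAT and CHR overlapped in 24 of the 7251 CCAAT promoters. Over all 919 promoters of shared lower genes CHR was in 19.2%. Promoters of replication and mitosis genes that were not called were not counted separately. The stretches below were picked for holding CCAAT and CHR near each other, and show both in capitals.
Top2a, CCAAT and CHR (chr11:99024351-99024390, minus strand): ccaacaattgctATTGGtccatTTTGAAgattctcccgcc
Cdk1, CCAAT and CHR (chr10:69352966-69353004, minus strand): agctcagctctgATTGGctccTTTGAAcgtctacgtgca
Ube2c, CCAAT and CHR (chr2:164769860-164769917, plus strand): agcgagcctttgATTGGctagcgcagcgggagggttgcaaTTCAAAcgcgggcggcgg
Mki67, CCAAT and CHR (chr7:135716478-135716532, minus strand): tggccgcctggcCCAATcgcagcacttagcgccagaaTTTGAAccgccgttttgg

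**Figure D4:**
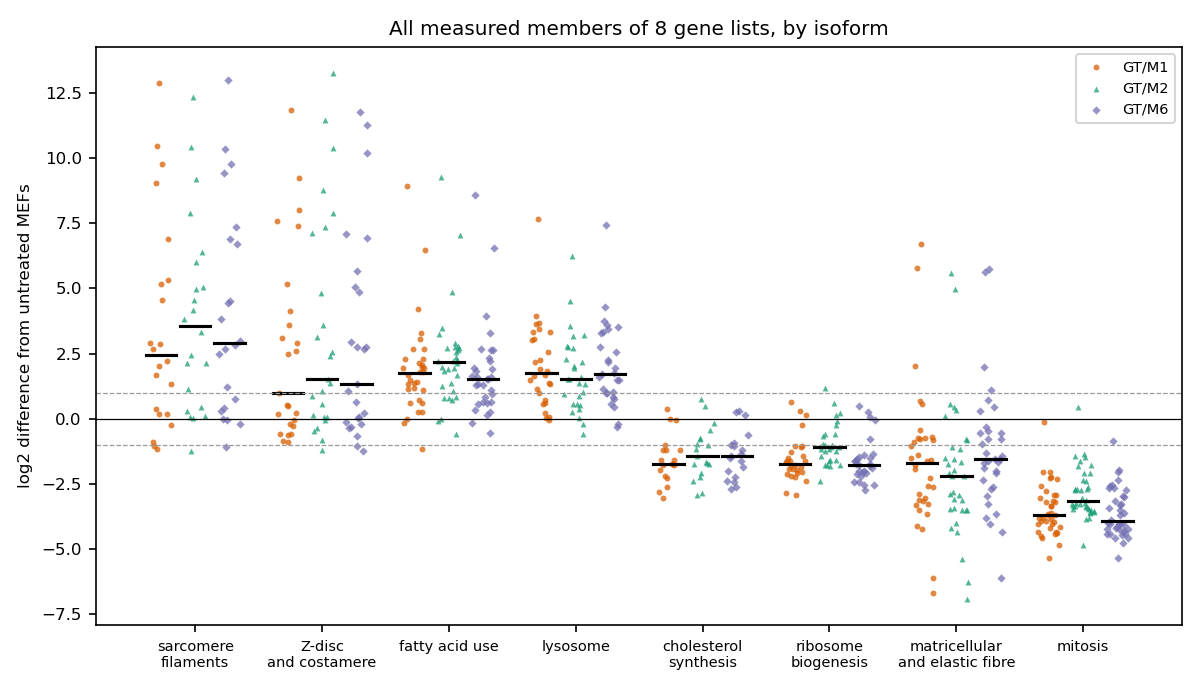
Each point is a measured member of 1 of 8 gene lists, plotted by its log2 difference from untreated MEFs with isoform 1 (circles), 2 (triangles) and 6 (diamonds), and black bars are list medians. Dashed lines mark 2-fold. The medians of mitosis are -3.68, -3.18 and -3.94 and those of lysosome 1.75, 1.52 and 1.73, while the sarcomere list spreads from below 0 to above 12 with each isoform.

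Many but not all fibroblast genes were lower. Of 25 fibroblast identity genes 10 were called lower and 0 higher, with a median of -1.89. The bounded median was -0.18, since only 14 of the 25 reached the line on any array, and the 10 calls held with bounds. Pdgfrb, the receptor of mesenchymal cells for platelet-derived growth factor, gave 13.62 on MEFs and 8.75, 8.01 and 9.32 with the isoforms, at least 19.6-fold lower. Snai2, a factor of mesenchymal cells, gave 14.54 against 10.28, 9.12 and 10.34, and Prrx1, a homeobox factor of limb and connective tissue, gave 16.32 against 12.48, 11.98 and 13.16. Thy1 and Ddr2 were 3.19-fold and 2.56-fold lower. Prrx1, Thy1 and Ddr2 remained well above the line, and vimentin (Vim) was not called, at 19.04 against 18.65, 18.78 and 18.49. Dlk1, a membrane protein of immature mesenchyme, gave 13.54 against 6.32, 6.45 and 5.44, at least 18.5-fold lower, and Crabp1, which binds retinoic acid, was at least 7.94-fold lower. Twist1 was under the line on all 4 arrays. Of the 9 measured fibroblast markers, 7 were called lower, and 8 were at the line on MEFs and 7, 7 and 8 with the isoforms. Of 10 cardiac markers 7 were called higher, with 1 at the line on MEFs and 7, 8 and 8 with the isoforms.

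Matrix genes differed by chain and by class. Of 24 collagen genes 7 were called lower and 0 higher. The 3 chains of collagen VI led: Col6a3 gave 13.23 on MEFs and 6.68, 6.08 and 7.45 with the isoforms, at least 14.95-fold lower, and Col6a2 and Col6a1 were at least 5.26-fold and 2.80-fold lower. The fibrillar collagens were lower by less, Col1a2 at 15.20 against 12.12, 10.50 and 13.01, Col1a1 at 15.51 against 12.88, 12.77 and 13.75 and Col3a1 at 12.89 against 10.10, 10.35 and 11.33. GT/M6 was the highest of the 3 isoform arrays in all 7 called collagen genes and GT/M2 the lowest in 6. Over all 902 shared lower genes these counts were 309 and 317. The 3 collagen VI chains were under the line with every isoform, so their order carries little weight. Enzymes that process collagen went both ways, with 4 of 19 higher and 5 lower. The crosslinking enzyme Lox gave 18.39 against 14.38, 13.90 and 15.36, and its relatives Loxl1 and Loxl3 were at least 9.37-fold and 11.7-fold lower. Tll1, a tolloid protease, gave 13.85 against 6.00, 5.70 and 6.06, at least 22.95-fold lower. Bmp1, a protease of the same family, was higher at 11.04 against 12.91, 12.84 and 13.31, as was its enhancer Pcolce at 12.28 against 14.84, 15.47 and 15.10.

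Of 34 matricellular and elastic fibre genes 15 were called lower (44.1%) and 2 higher (5.88%), against 4.62% and 5.4% of all genes. Tnc, tenascin C of growing and injured tissue, gave 17.79 against 14.12, 12.42 and 14.14, 12.6-fold lower. Vcan, the large proteoglycan versican, gave 14.39 against 10.29, 10.21 and 10.59, and Has2, which makes hyaluronan, gave 11.81 against 5.11, 4.89 and 5.68. Has2 was under the line with every isoform, and the others stayed above it. The 2 called higher were small leucine-rich proteoglycans. Dcn, decorin, gave 8.54 against 15.24, 13.52 and 14.27 and was at least 26.3-fold higher, and Podn gave 7.33 against 13.12, 12.93 and 12.97 and was at least 17.4-fold higher. Another member of that family, Aspn, was at least 5.10-fold lower. The high-signal matrix genes Sparc and Fn1 gave 18.11 against 18.80, 18.55 and 18.85 and 18.12 against 17.24, 16.37 and 17.14, and neither was called.

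Of 26 genes for metalloproteases, the urokinase system and their inhibitors 8 were called lower (30.8%) and 2 higher (7.69%). The shares of all genes were 4.62% and 5.4%. Plaur, the urokinase receptor, gave 12.45 on MEFs and 5.25, 4.46 and 5.83 with the isoforms, and its ligand Plau, urokinase, gave 11.59 against 6.00, 5.63 and 5.77. Both receptor and ligand were under the line with every isoform, at least 8.67-fold and 4.79-fold lower. Adam12, a metalloprotease of activated mesenchyme, was at least 11.8-fold lower. Timp1, an inhibitor of metalloproteases, gave 15.83 against 12.08, 11.21 and 12.79, while the inhibitors Timp3 and Reck were higher, Timp3 at 13.43 against 15.75, 15.03 and 16.13 and Reck at 7.49 against 11.88, 10.38 and 12.07. The other 16 genes of the list were called in neither direction.

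Smooth muscle and stress fibre genes were lower although heart muscle genes were higher. Of 21 genes 10 were called lower and 2 higher. Cnn1, calponin of smooth muscle, gave 15.63 on MEFs and 10.42, 9.39 and 10.18 with the isoforms, 37.1-fold lower by its smallest difference. Actg2, enteric smooth muscle actin, gave 16.86 against 11.50, 11.48 and 12.60, 19.2-fold lower. Tagln, transgelin, and its relative Tagln2 were 3.03-fold and 13.8-fold lower. Acta2, smooth muscle alpha-actin, gave 19.66 against 18.47, 18.24 and 18.79, a difference under 2-fold with GT/M6 only, so it was not called. It was called with arrays centred on their median or on negative controls. The 2 genes called higher were Des and Nt5e, an ectonucleotidase found on mesenchymal cells, at 3.52 against 9.64, 12.76 and 11.10. Fscn1, an actin-bundling protein of cell protrusions, gave 16.03 against 11.63, 10.45 and 12.09. Among 20 Yap and Tead targets 5 were called in each direction. Ccn2 was lower at 18.07 against 15.01, 15.15 and 15.44 and Ccn1 at 18.80 against 17.19, 17.15 and 17.24, while Ankrd1 was higher.

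Genes of secreted signals were called in both directions. Inhba, the activin A subunit, gave 16.48 on MEFs and 10.34, 9 and 10.60 with the isoforms, 58.9-fold lower and the lowest gene measured on all 4 arrays. Of 40 Bmp, Tgf-beta and Notch genes 9 were called lower (22.5%) and 3 higher (7.5%), against 4.62% and 5.4% of all genes. The Bmp targets Id1, Id2 and Id3 were all called lower, by shared differences of -3.86, -1.02 and -1.73, and Jag1, a Notch ligand, gave 12.92 against 8.94, 7.96 and 9.68. Tgfb2 was higher at 11.99 against 14.06, 14.01 and 14.35 and Tgfb3 lower at 13.91 against 11.85, 11.58 and 12.14, so these ligands were called in opposite directions. The fetal growth factor gene Igf2 gave 19.40 against 15.97, 15.14 and 15.70, 10.8-fold lower. Its binding protein gene Igfbp5 was at least 11.4-fold higher and Pappa, a protease that cuts binding proteins, at least 8.32-fold lower. In the Wnt list 4 of 34 genes were called higher, led by the receptor gene Fzd6 at 8.35 against 14.06, 13.21 and 13.31, and the ligand gene Wnt5a was lower at 10.79 against 7.35, 7.01 and 7.85.

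Of 31 chemokine, cytokine and related genes 4 were called lower, 0 higher and 27 in neither direction. Ptgs2, the inducible cyclooxygenase, gave 15.29 on MEFs and 6.62, 5.92 and 7.17 with the isoforms, at least 62.1-fold lower and the lowest of the named genes by bounded difference. Egr1, an early response factor, gave 14.69 against 10.48, 9.45 and 10.32, and the AP-1 factor gene Fosl1 gave 12.95 against 8.55, 8.08 and 8.42. The chemokine genes Ccl2 and Cxcl12 were at least 6.16-fold and 7.92-fold lower. Of 33 interferon response genes 1 was called higher (3.03%) and 0 lower, against 5.4% and 4.62% of all genes. That gene, Stat2, gave 6.17 against 9.97, 9.10 and 10.66, at least 1.23-fold higher. Isg15, a sensitive target, gave 3.47 against 3.74, 2.39 and 4.33. Only 5 of the 33 genes reached the line on any array, so most of this response lay under it. In antigen presentation Tap1 and Tapbp, which load peptides, were at least 2.88-fold and 3.23-fold higher.

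Genes of several biosynthetic pathways were lower. Of 28 ribosome biogenesis genes 17 were called lower and 0 higher, with a median of -1.53 and a bounded median of -1.31. Nop58, a core protein of box C/D particles, gave 13.59 on MEFs and 11.37, 11.80 and 11.15 with the isoforms, and the nucleolar helicase gene Ddx21 gave 14.34 against 11.94, 12.57 and 11.80. Their differences were moderate: at a 4-fold threshold 1 of the 17 remained. GT/M2 was the highest of the isoform arrays in 16 of the 17, beside 440 of all 902 shared lower genes. The 31 measured ribosomal protein genes, of 41 on the list, reached the line on every array, and 0 of them were called. Their median was -0.51, and 23 were below MEFs with all 3 isoforms, beside 6160 of the 19505 genes.

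Of 19 cholesterol synthesis genes 11 were called lower and 0 higher, with a median of -1.55 and a bounded median of -1.11. The called genes spanned the pathway from its entry, Hmgcs1, at 15.28 against 13.72, 14.13 and 13.77, to the closing of the ring by lanosterol synthase, Lss, at 13.12 against 11.17, 11.39 and 11.11. Idi1, an isomerase of its early part, and Hsd17b7, of its late part, were at least 5.19-fold and 5.40-fold lower. Insig1, a feedback regulator that is itself a target of the sterol factor Srebf2, gave 11.53 against 9.32, 9.28 and 9.10. Srebf2 gave 14.84 against 15.24, 15.61 and 15.09 and was not called. The lipid desaturase gene Scd1, in contrast, was higher at 14.20 against 16.52, 16.92 and 16.04.

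Of 18 serine, one-carbon and amino acid genes 7 were called lower and 0 higher. Bcat1, which transaminates branched-chain amino acids in the cytosol, gave 14.71 against 6.58, 5.96 and 7.14, at least 41.6-fold lower. Mthfd2, of the mitochondrial folate pathway, gave 12.24 against 9.58, 10.08 and 9.75, and Phgdh, the entry to serine synthesis, gave 12.63 against 10.16, 10.88 and 10.91. Their activator Atf4 was lower too, at 13.99 against 12.53, 12.56 and 12.53, while its target Ddit3 was higher at 9.14 against 11.26, 10.67 and 11.04.

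Antioxidant genes went both ways, with 6 of 30 called higher and 3 lower. Beside Gpx3, the selenium carrier Selenop gave 7.22 against 12.42, 11.90 and 12.11, at least 8.51-fold higher, and Gpx4, which protects membrane lipids, gave 12.34 against 14.71, 14.51 and 14.53. These 3 are selenoproteins. Txnip, an inhibitor of thioredoxin and of glucose uptake, gave 10.44 against 14.98, 14.89 and 15.39, 21.8-fold higher, and thioredoxin itself, Txn1, was lower at 16.80 against 14.93, 15.46 and 15.13. Of the complement and acute phase list 3 of 20 were called higher, Clu, Cd55 and Serpina3n. Serpina3n, a secreted protease inhibitor, gave 3.68 against 15.72, 14.09 and 15.37 and was at least 39.0-fold higher.

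Markers of other cell types were read against 5.4% higher and 4.62% lower over all genes. Macrophage and leukocyte markers had 0 of 19 genes at the line on any array. Of 17 endothelial markers 1 or 2 reached the line on each array, and Kdr was called lower, at 8.96 on MEFs, close to the line, against 6.52, 6.95 and 6.55. Of 19 epithelial and mesothelial markers 0 were at the line on MEFs and 2, 2 and 1 with the isoforms, and Upk1b was called higher at 4.58 against 9.87, 8.97 and 10.49. Neural markers gave 2 lower calls of 18 (11.1%), Stmn2 and Nes, adipocyte markers 2 higher calls of 14 (14.3%), Scd1 and Lpl, and chondrocyte and bone markers 0 of 19. Summed over its list, the log2 signal went from 88.8 on MEFs to between 81.4 and 94.4 for macrophage markers, from 75.8 to between 70.1 and 72.7 for endothelial markers, from 76.6 to between 92.6 and 94.2 for epithelial markers and from 106.4 to between 94.7 and 103.7 for neural markers. It went from 73.1 to between 77.3 and 80.5 for adipocyte markers and from 89.5 to between 88.1 and 90.1 for chondrocyte and bone markers. What part other cells have in the gene differences was not tested.

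The genes in which the isoforms stood furthest apart were split between GT/M2 and the other two. Csrp3, the muscle LIM protein of the Z-disc, gave 3.50 on MEFs and 12.75, 16.76 and 14.78 with the isoforms, a range of 4.02 and the widest among genes without predicted names that reached the line with every isoform. Synpo2l, a Z-disc protein, gave 5.35 against 9.50, 12.70 and 10.21, and Nt5e was also highest with isoform 2. In Scg2, a secretory granule protein, at 4.90 against 16.07, 13.03 and 16.44, and in Col10a1, at 3.85 against 10.98, 8.95 and 12.22, isoform 2 was lowest instead. These 5 genes were shared higher despite their range. Tm4sf1, a tetraspan surface protein, and Grem1, a Bmp antagonist, were shared lower and lowest with isoform 2, Tm4sf1 at 16.10 against 11.97, 9.29 and 12.22 and Grem1 at 13.34 against 11.48, 8.93 and 11.66. Lama4, a laminin chain, gave 12.65 on MEFs, 12.78 with isoform 2 and 9.87 and 10.52 with isoforms 1 and 6, so it was lower with those only. Cthrc1, a secreted protein of injured tissue, gave 10.69 on MEFs, 10.30 with isoform 2 and 12.90 and 12.98 with isoforms 1 and 6. Cemip, which breaks down hyaluronan, had values of 9.28 against 12.43, 10.20 and 12.89. Ppm1e, a phosphatase, gave 8.61 against 9.68, 12 and 9.28, and Ptprz1, a receptor phosphatase, gave 13.47 against 12.17, 10.21 and 13.11. Isoform 2 was furthest from MEFs in Ppm1e and Ptprz1, but nearest to MEFs in Lama4, Cthrc1, Cemip, Scg2 and Col10a1.

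**Figure D5:**
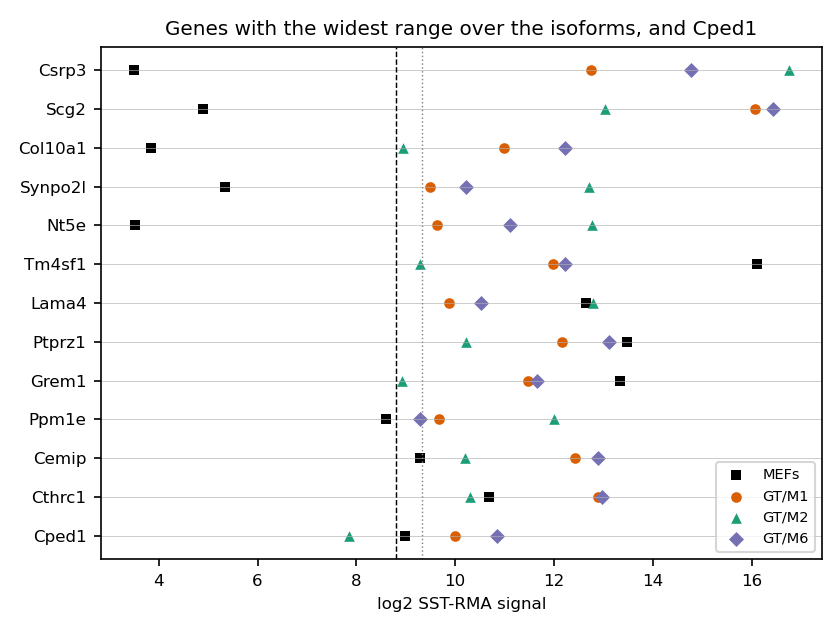
Log2 signal on MEFs (squares), GT/M1 (circles), GT/M2 (triangles) and GT/M6 (diamonds) of the 12 genes with the widest range over the isoforms, in order from the top, and of Cped1. The dashed line is the MEF detection line at 8.81 and the dotted line that of GT/M1 at 9.33. GT/M2 is at 1 end of the isoform values in all 12, highest in 5 of them, and Csrp3 spans 12.75 to 16.76.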

How the data were processed

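The values were deposited by the authors as log2 signals in 1 table of 7 arrays. They were made with Affymetrix Expression Console 1.4 per the submitters' processing notes and with SST-RMA per the series design text. Near background, log2 signals are compressed, and a shift common to most genes may be removed by scaling.

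Of 28846 probe sets, 19572 had 1 symbol in the platform annotation and 0 had several. These stand for 19505 genes, and 55 genes with more than 1 set were represented by the brightest set, averaged over all 7 arrays. The 9274 unnamed sets entered no gene count. Differences, calls and bounds were computed in Python 3.11.15 with pandas 2.3.3 and numpy 2.4.6, and the call rule was tested on simulated data. No difference was tested, since each group had 1 array. The precision is limited by the number of arrays.

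Of 1132 genes on the 42 lists, 1041 had a probe set and the other 91 were not analysed here. For 11 genes the symbols were updated through RefSeq synonyms. Members and lists were chosen with earlier results of these data known. Named genes were the 12 highest and lowest by shared or bounded difference, the factors, up to 3 called members of each list in each direction, markers, and the 12 widest ranges over isoforms, without predicted genes. Further list members named in the text were chosen after their values were seen. Promoters came from RefSeq (GRCm38.p6) and covered 15691 of the genes. Alternatives changed the floor, the threshold, the scaling, the probe set rule and the isoform arrays required.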

Additional observations from a re-analysis of the deposited data

Results flagged for a closer look

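Cped1, which encodes a protein with cadherin-like and PC-esterase domains, was the 1 named gene called in opposite directions. It gave 8.99 on MEFs and 9.99, 7.86 and 10.85 with isoforms 1, 2 and 6, which are differences of 1.01, -1.13 and 1.86. With 1 array per isoform this difference between isoforms was not tested. All 4 values lay within about 2 log2 units of the detection lines.

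Among 2634 transcript probe sets with no symbol, which entered no comparison above, 75 were shared higher (2.85%) and 92 shared lower (3.49%), against 0.44% and 0.46% of negative-control probes. What these transcripts are is not given in the sources used here.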

How the results depend on the processing

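No paired analysis was possible because each group had 1 array and the result comes from no test. With no floor on the signal the counts were 2118 higher and 1373 lower, and with each array's median as the floor 1918 and 1306. At a 4-fold threshold they were 476 and 395. Requiring only 2 of the 3 isoform arrays gave 1107 to 1205 higher and 931 to 1082 lower. The other scalings, bounds and probe set rule kept both counts within 1.5 times the main ones, and no setting reversed a called named gene. Of 188 named genes, 18 lost their call with values under the line set to the line, among them Fdps, Tbx20, Mybl2, Rrp12, Gjc1 and Stat2, and 36 at 4-fold. Centring on the median lost Cox4i1, Crtap, Hoxc6 and Tgfbr2 and quantile normalization Tpm1, Cox4i1, Crtap and Hoxc6. The cause was not tested. Setting values under the line to the line also moved the medians of 32 of 42 lists towards 0 and outside the range of their medians with the 3 isoforms. Without a floor, sarcomere genes called higher went from 8 to 15 and replication genes called lower from 23 to 36. List medians of antioxidant, unfolded protein, Hox, Wnt, adipocyte and chondrocyte genes, all near 0, changed sign with both centrings, and those of epithelial genes with median centring. Signal over background limits all genes near the lines, and 13343 genes reached no line.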

Other observations

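Several genes outside the gene lists stood at the ends of the comparison. Ptprn, a membrane protein of secretory granules, gave 13.21 on MEFs and 8.44, 7.14 and 8.95 with the isoforms, at least 14.7-fold lower, while the granule protein gene Scg2 was at least 18.7-fold higher. Htr1b, a serotonin receptor, gave 15.23 against 10.02, 10.44 and 11.58 and was 12.5-fold lower. Epha2, an ephrin receptor, and Cspg4, a proteoglycan of pericytes and progenitor cells, were at least 8.83-fold and 8.46-fold lower. Hmga2, a chromatin protein of embryonic cells, was picked after its values were seen and not for its rank. It gave 9.64 against 4.82, 4.37 and 4.66. Its MEF value was close to the line and its isoform values were under it, so its fold is poorly known.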
